A study of Mus musculus with 12 samples.

Results

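Chl1, Emp2, Dock2, Mdga2, Osbpl8 and Sfi1 are 6 mouse genes at which a pair of MACF1 immunoprecipitates from control osteoblasts gave peaks at the same place. They were chosen by the peak lists themselves, because control 1 and control 2 had overlapping peaks in or near them on autosomes, so the peaks of those libraries at these sites describe the genes and are not tested. Of 21887 protein-coding genes placed on the autosomes, X and Y, 29 lay within 50 kb of an autosomal site with such a shared peak and 10 held one in their span. The 6 genes described here were taken from those 29. For each, all peaks of the 6 libraries inside the RefSeq span or within 50 kb of it, termed its window, were collected.

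The study immunoprecipitated MACF1 from MC3T3-E1, a mouse osteoblast cell line, with an anti-MACF1 antibody and sequenced the recovered DNA. Cells with the genotype label Control were compared with cells labelled MACF1 knockdown, with 3 immunoprecipitates and 3 matched inputs in each, and peaks were called separately for each immunoprecipitate, with the input of the same name as background. The labels name the line, the antibody and the genotype, but not how MACF1 was knocked down nor which of the listed antibody lots went into which library, and all 12 samples share the line and the lysis and sonication protocol. Libraries carried the labels 1, 2 and size3, and nothing says that they came from separate cultures, so p-values measure only the spread between these libraries. A peak list does not measure expression, so neither the osteoblast identity of the cells nor the depletion of MACF1 was checked here.

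MACF1 is a giant crosslinker of actin filaments and microtubules and has also been linked to Wnt signalling. In chromatin immunoprecipitation followed by sequencing, fragments held by the antibody, directly or through other proteins, pile up over input at the places they came from, and a peak caller reports each pile with its width, its summit and its fold enrichment over the local input background. The 6 genes have no common pathway. Chl1 and Mdga2 encode immunoglobulin-domain proteins of neural adhesion and synapse formation. Emp2 encodes a small membrane protein of the PMP22 family, and Osbpl8 a lipid transfer protein at contacts of the endoplasmic reticulum. Dock2 encodes an activator of the GTPase Rac in blood cells, and Sfi1 a centrin-binding protein of the centrosome.

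The libraries differed in depth and in list length. After duplicate removal, the control immunoprecipitates (labels 1, 2, size3) held 26196138, 33085606 and 10698067 reads, and the knockdown immunoprecipitates held 18454330, 5575205 and 8175173. Their redundant rate, the share of duplicate reads, was 0.25, 0.16, 0.01, 0.51, 0.65 and 0.02 in the same order, and their lists held 772, 198, 2196, 21398, 4513 and 17592 peaks. The authors' peak caller gave 99.7% of the peaks of control 1, 100% of those of control 2 and 98.4% of those of knockdown 2 a false discovery rate of 100%, the rate found by swapping immunoprecipitate and input. The part of depth and duplicates in the results below was not tested.

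The 6 windows together spanned 2.38 Mb and held 71 peaks. Of these, 25 lay at 8 sites shared by control 1 and control 2, of which 2 were in Emp2, 2 in Dock2 and 1 each in Chl1, Mdga2 and Osbpl8 and beside Sfi1. Knockdown 2 had a peak at 7 of the 8 sites, all but the one in Osbpl8, so that 5 of the 6 genes had a site with control 1, control 2 and knockdown 2 together. Control size3, knockdown 1 and knockdown size3 had a peak at none of the 8. Among the 35 autosomal sites of control 1 and control 2 outside these windows, knockdown 2 had a peak at 82.9%, and among all 71 shared sites at 85.9%, so 7 of 8 is close to what such sites gave elsewhere. None of the 71 sites had a peak of control size3, knockdown 1 or knockdown size3.

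**Figure D1:**
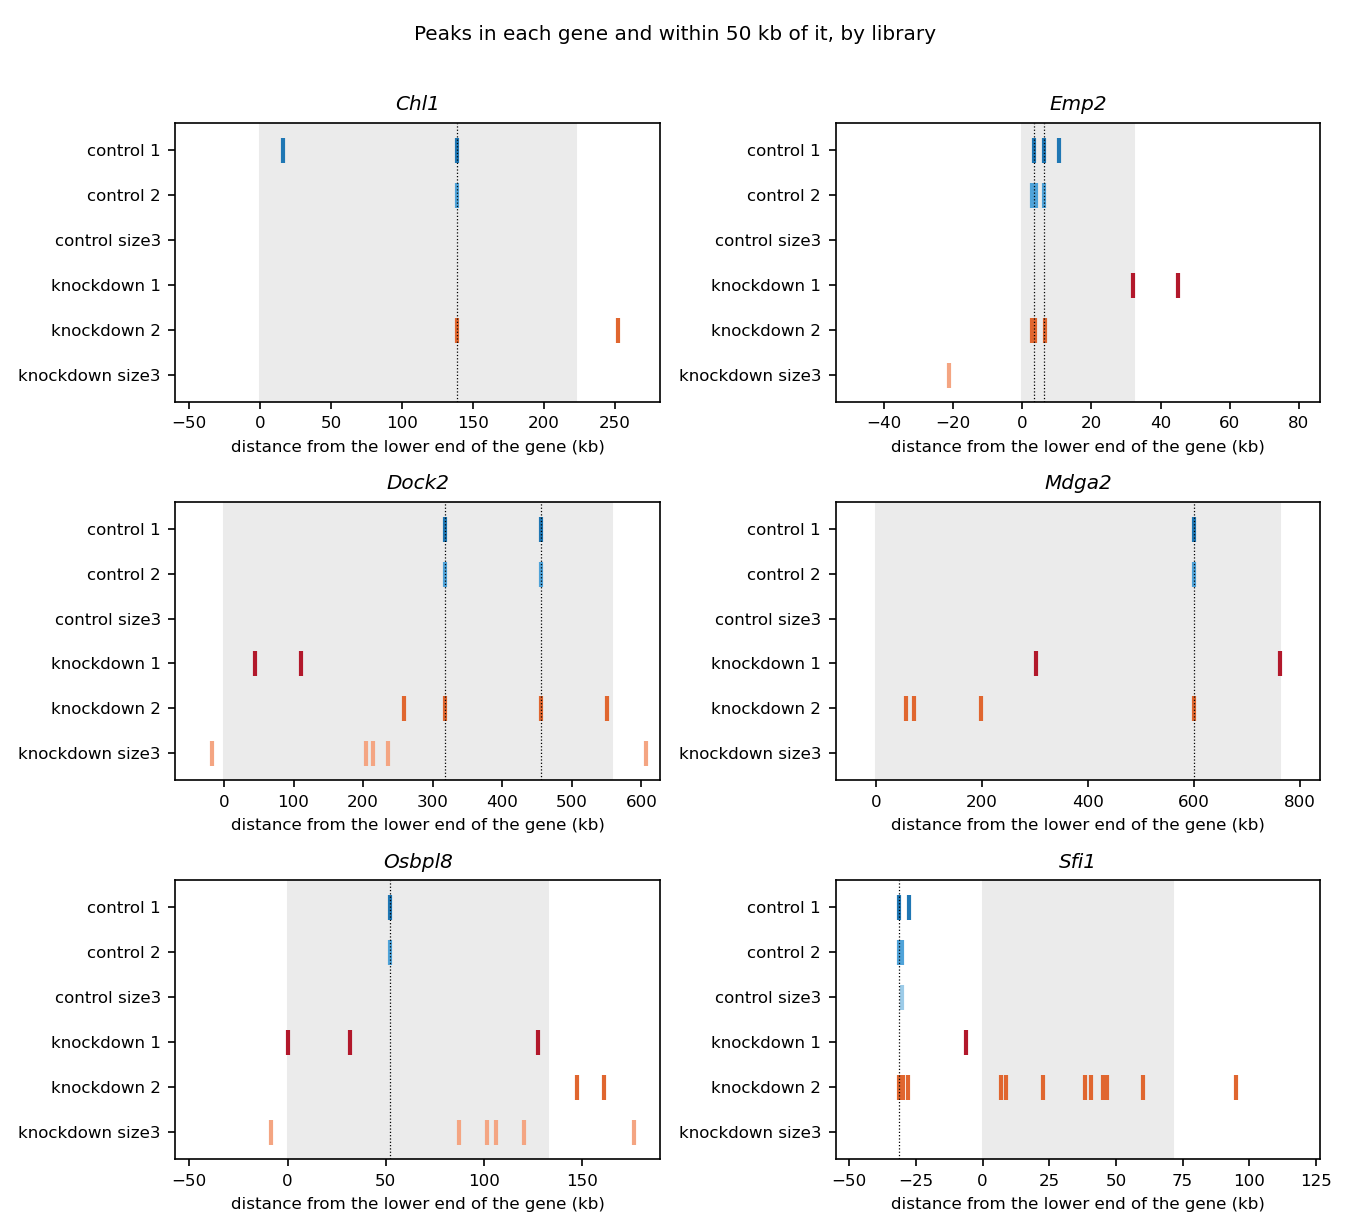
Position of every peak in and around the 6 genes: the x axis is the distance in kb from the end of the gene with the lower coordinate, each row is a library, grey shading marks the gene span and dotted lines mark the 8 sites shared by control 1 and control 2. Knockdown 2 marks fall on 7 of the dotted lines, and the marks of knockdown 1 and knockdown size3 fall on none.

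Chl1 (chromosome 6, 103510584 to 103733038, GRCm38) encodes a neural cell adhesion molecule related to L1. Its site, chr6:103648937-103649771, lay inside the gene, 62.4% of the way along the span from the start. Control 1 had 255 reads there in a peak of 767 bp, control 2 had 269 reads in 831 bp and knockdown 2 had 273 reads in 673 bp. As RPM, the reads in the peak per 1000000 reads of the library after duplicate removal, this was 9.73, 8.13 and 49.0, so the knockdown 2 value stood above the 2 control values. Fold enrichment was 21.93, 23.19 and 167.28, which ranked 2 of 772, 1 of 198 and 1 of 4513 within the respective lists. The summits of control 1 and control 2 fell on the same base, 103649198, and that of knockdown 2 lay 23 bp away. The false discovery rate was 0.0% in knockdown 2 and 100% in both control libraries. The other peaks of the window were 1 of control 1 with 31 reads, 16.1 kb downstream of the start, and 1 of knockdown 2 with 8 reads, 30.0 kb past the gene. Knockdown 1, knockdown size3 and control size3 had no peak in this window.

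Mdga2 (chromosome 12, 66459419 to 67222549) encodes a membrane-anchored protein that binds neuroligins and restrains synapse formation. Its site, chr12:67058785-67059935, lay 21.4% along the gene. It held 124 reads in control 1, 192 in control 2 and 82 in knockdown 2, or 4.73, 5.80 and 14.7 RPM. Knockdown 2 was again highest in RPM. Its fold enrichment was 16.38, against 5.77 in control 1 and 9.03 in control 2. Within the lists these folds ranked 1521 of 4513 in knockdown 2, 185 of 772 in control 1 and 35 of 198 in control 2. The median folds of the lists were 15.6, 5.35 and 6.36 in the same order. Summits lay 25 bp apart in the control libraries, and 7 bp apart in control 1 and knockdown 2. Elsewhere in the gene knockdown 2 had 3 peaks of 8 reads each, 564 to 706 kb from the start. Knockdown 1 had 2 peaks, 1 with 24 reads inside the gene and 1 with 120 reads over the start. Knockdown size3 and control size3 had none.

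Emp2 (chromosome 16, 10281749 to 10313968) encodes a tetraspan membrane protein, and at 32.2 kb it is the shortest of the 6 genes. Its sites lay towards the far end of the gene, 89.8% and 80.4% along the span from the start. The first, chr16:10283972-10286100, was a single peak of 2129 bp with 431 reads in control 1, which covered a pair of peaks in control 2 with 127 and 139 reads and a pair in knockdown 2 with 20 and 22 reads. The summit of control 1 and that of the second control 2 peak fell on the same base, 10285528. The control 1 peak had the highest fold enrichment of its list, 39.63, and a false discovery rate of 50.0%. The control 2 peaks had folds of 21.26 and 19.84 and those of knockdown 2 had 23.27 and 17.25. The second site, chr16:10287548-10288585, had 139 reads in control 1, 78 in control 2 and 15 in knockdown 2, with folds of 13.95, 12.30 and 12.98. In RPM the values were 5.31, 2.36 and 2.69 at the second site, and 16.5 in control 1, 3.84 and 4.20 in the control 2 peaks and 3.59 and 3.95 in the knockdown 2 peaks at the first. Per kb of peak width, control 1 had 7.73 RPM and knockdown 2 had 11.3 and 6.53 at the first site, and 5.57 and 7.06 at the second. Control 2 had 4.01 and 5.59 at the first site and 2.27 at the second, below knockdown 2 at both. At the second site the order of control 1 and knockdown 2 thus depended on the width of the peaks. At the first site 1 knockdown 2 peak was above the control 1 peak per kb and the other was below it. Control 1 had 1 further peak in the gene, with 36 reads. Knockdown 1 had 2 peaks in the window, 1 with 76 reads over the start and 1 with 35 reads 12.8 kb before it. Knockdown size3 had 1 with 15 reads, 21.1 kb past the gene, and control size3 had none.

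Osbpl8 (chromosome 10, 111164742 to 111297249) encodes ORP8, which moves phosphatidylserine between membranes. Its site, chr10:111216604-111217565, lay 39.5% along the gene and was the one without a knockdown 2 peak. Control 1 had 32 reads in 795 bp and control 2 had 40 reads in 912 bp, 1.22 and 1.21 RPM. Folds were 7.5 and 7.42, and the summits lay 204 bp apart, the largest distance between these libraries among the 8 sites. These were the fewest reads of any site in both libraries. The nearest knockdown 2 peaks were past the gene, 14.4 kb and 28.2 kb from its end, with 11 and 8 reads. A knockdown 2 peak in these windows held at least 8 reads, which in that library is 1.43 RPM. Whether depth bears on the missing peak was not tested. Knockdown 1 had 3 peaks in the window, with 220, 98 and 44 reads, and knockdown size3 had 6, with 13 to 26 reads.

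Dock2 (chromosome 11, 34226815 to 34783905) encodes a guanine nucleotide exchange factor for Rac that lymphocytes need for migration. Its first site, chr11:34544354-34545141, lay 42.9% along the gene and held 63 reads in control 1, 53 in control 2 and 58 in knockdown 2. In RPM this was 2.40, 1.60 and 10.4, and the folds were 14.02, 10.23 and 46.08. The second site, chr11:34681512-34682668, lay 18.3% along and held 149, 160 and 87 reads, or 5.69, 4.84 and 15.6 RPM. Its folds of 6.14, 5.25 and 20.35 were lower than at the first site in each library. In knockdown 2 the false discovery rate was 5.56% at the first and 12.28% at the second, against 100% in the control libraries. The knockdown 2 summit lay 6 bp from that of control 1 at the first site and 253 bp from it at the second, the largest distance between those 2 libraries at any site. Knockdown 2 had 2 further peaks in the gene with 8 and 14 reads, knockdown 1 had 2 with 52 and 28 reads and knockdown size3 had 5 with 12 to 18 reads in the window.

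Sfi1 (chromosome 11, 3131850 to 3203347) encodes a protein of the centrosome and spindle pole. Its shared site, chr11:3100041-3100727, did not lie in the gene but 31.1 kb below it. Control 1 had 33 reads there, control 2 had 44 and knockdown 2 had 17, or 1.26, 1.33 and 3.05 RPM, with folds of 6.04, 9.62 and 21.70. The fewest reads of a knockdown 2 peak, 8, are 1.43 RPM, so any knockdown 2 peak here would exceed both control values. Next to the shared site, 113 bp from the control 1 peak, control 2 had a second peak with 157 reads (3100834 to 3102642). That peak overlapped one of control size3 with 42 reads (3100998 to 3102251) and one of knockdown 2 with 22 reads (3101668 to 3102287). A further place at 3103605 to 3104397 had peaks of control 1 with 25 reads and knockdown 2 with 12. This cluster held the only overlaps between peaks of different libraries outside the 8 sites, and the only control size3 peak in any window.

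Inside Sfi1 the peaks came from knockdown 2 alone. It had 12 peaks in the window, of which 8 had their summit in the gene. One of them, at 3184182 to 3200095, was 15914 bp wide, the widest of the 4513 peaks of that list, and held 2608 reads, the second most. Its fold enrichment was 6.50, under the list's median of 15.6, and its false discovery rate was 0.0%. With the Chl1 peak it made 2 of the 41 knockdown 2 peaks at that rate. The other peaks with a summit in the gene held 8 to 28 reads. Knockdown 1 had 1 peak in the window, with 65 reads over the pseudogene Pisd-ps1, and knockdown size3 had none.

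**Figure D2:**
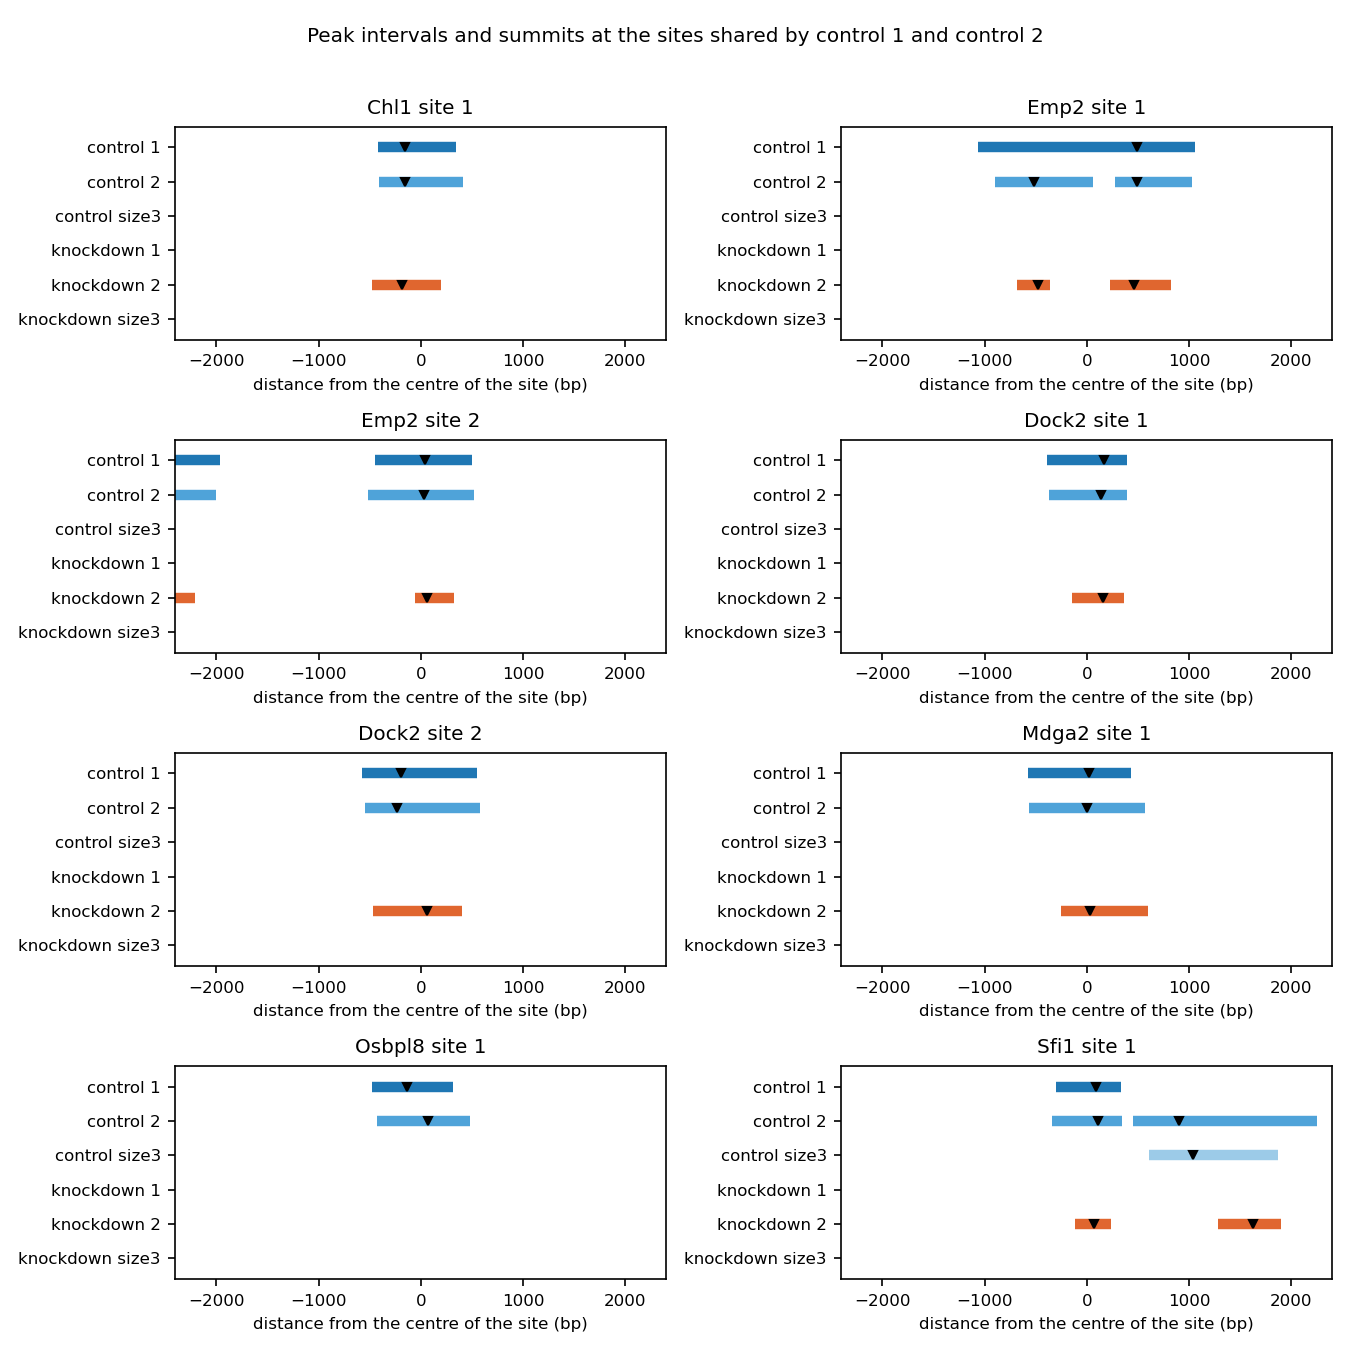
Peak intervals at the 8 shared sites: the x axis is the distance in bp from the centre of the site, each row is a library, bars are the deposited peak intervals and triangles their summits. The bars of control 1 and control 2 nearly coincide except at the first Emp2 site, whose bars also show at the left edge of the panel of the second, the knockdown 2 bars lie within or across them at 7 sites with none at Osbpl8, and control size3 appears only beside the Sfi1 site.

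Summits were close in the libraries that shared the sites, while knockdown 2 peaks were narrower than the control peaks at all 7 sites where that library had one. The nearest summits of control 1 and control 2 were 0 to 204 bp apart with a median of 20.5 bp, those of control 1 and knockdown 2 were 6 to 253 bp apart with a median of 23.0 bp, and 7 of 8 and 6 of 7 distances were at most 50 bp. At the 35 autosomal shared sites elsewhere the medians were 7 and 12 bp. Peaks at the 8 sites had a median width of 874 bp in control 1, 912 bp in control 2 and 558 bp in knockdown 2, against 732, 936 and 359 bp over the whole lists. All 8 site peaks of control 1 and 8 of the 9 of control 2 had a fold enrichment above the median of their list, values that stem from the lists which chose the sites. Of the 8 knockdown 2 peaks, 7 exceeded that list's median fold and all 8 its median of 9 reads. The exception in fold was the second Emp2 site. The false discovery rate was 100% for 5 of these 8 knockdown 2 peaks, those at both Emp2 sites, in Mdga2 and beside Sfi1.

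**Figure D3:**
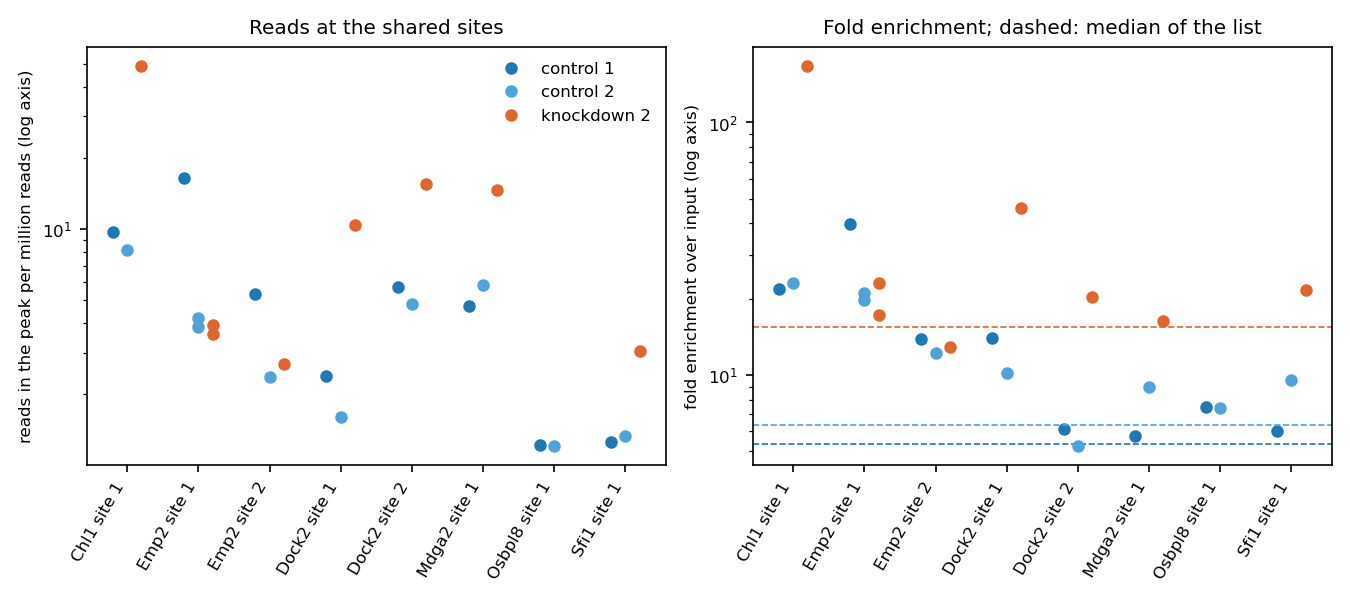
RPM of the peak (left) and fold enrichment over input (right), both on log axes, for each peak at the 8 sites; dashed lines are the median folds of the lists, 5.35 in control 1, 6.36 in control 2 and 15.6 in knockdown 2. Knockdown 2 lies above both control libraries at Chl1, Dock2, Mdga2 and Sfi1, and has lower RPM than control 1 at both Emp2 sites. At Sfi1 both control values are under 1.43 RPM, that of the fewest reads in the knockdown 2 list, so any knockdown 2 peak would lie above them. The RPM of knockdown 2 is close to that of control 2 at the first Emp2 site and above it at the second.

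Counting all peaks of the windows, control 1, 2 and size3 had 11, 10 and 1. Knockdown 1, 2 and size3 had 10, 27 and 12, so the groups overlapped. Leaving out the shared sites took peaks only from control 1, control 2 and knockdown 2, and 46 peaks remained outside these sites. Control libraries 1, 2 and size3 had 3, 1 and 1 of them, and knockdown libraries 1, 2 and size3 had 10, 19 and 12. Every knockdown library was above every control library in this count, and every knockdown list was longer than every control list. The means were 1.67 ± 1.15 (SD, n = 3) and 13.7 ± 4.73 (SD, n = 3), a difference of 12 peaks (exact two-sided permutation p = 0.1, the smallest that 20 assignments of 3 and 3 allow). As a share of each library's list the direction turned: 0.389%, 0.505% and 0.0455% in control and 0.0467%, 0.421% and 0.0682% in knockdown, a knockdown minus control difference of -0.134 percentage points (exact permutation p = 0.7). With peaks of a deposited score of at least 100 alone, the score being 10 times the negative log10 of p, the difference was 0.667 peaks (exact permutation p = 0.8). The shared sites were redefined at that score and fell to 2, so peaks at the other sites then counted as outside. Among these were control 1 peaks at sites that chose the genes, so this value does not describe peaks outside all 8 sites. More than any other window, Sfi1 set the knockdown 2 number: its window held 11 of the 19, and without that window the counts were 2, 0 and 0 against 9, 8 and 12.

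These other peaks differed between the knockdown libraries much as their whole lists did. Over the whole lists of knockdown 1, 2 and size3 the medians were 46, 9 and 17 reads and 990, 359 and 647 bp. In knockdown 1 they had a median of 58.5 reads, a median width of 1153 bp and a false discovery rate of 1.39 to 3.45%. In knockdown size3 the medians were 16.5 reads and 571 bp, with a rate of 1.95 to 6.85%. In knockdown 2 the medians were 9 reads and 337 bp, and 9 of its 19 peaks held 8 reads, the smallest number in that list. The false discovery rate was 100% for 18 of the 19 and 0.0% for the wide peak in Sfi1. No peak of knockdown 1 overlapped one of another library in these windows, and the same was true of knockdown size3.

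**Figure D4:**
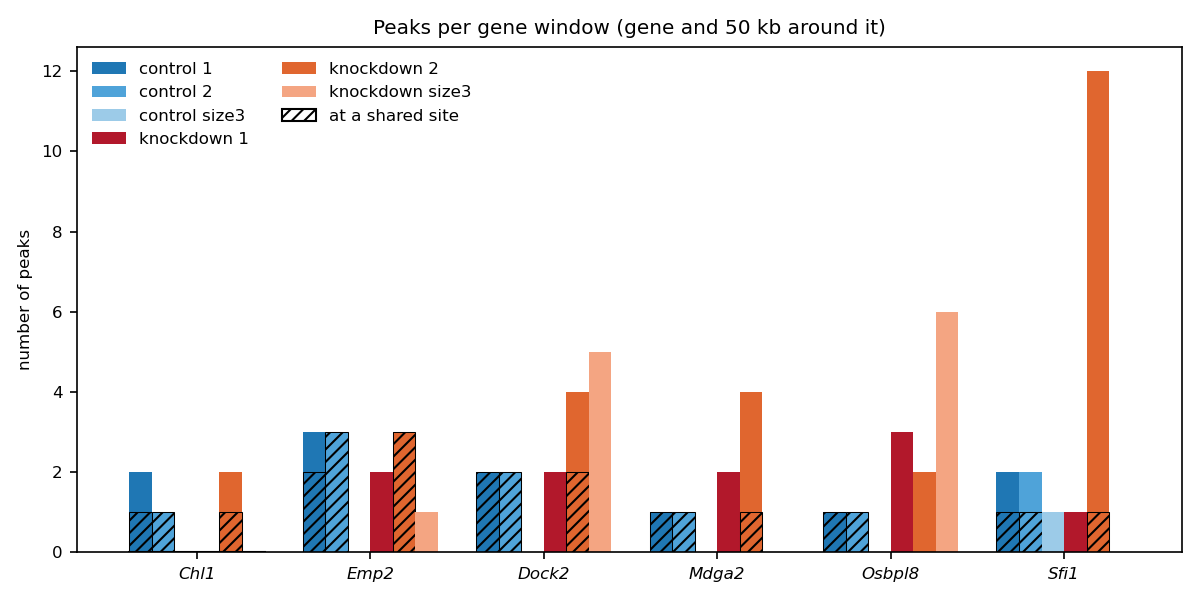
Number of peaks in each gene window by library, with hatching for peaks at a shared site. Control 1, control 2 and knockdown 2 have hatched bars, the last at every gene but Osbpl8, and the bar of 12 peaks for knockdown 2 at Sfi1 is the tallest.

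Whether a gene had a peak at all was read against all protein-coding genes. A peak of control 1 or control 2 in the window, which the choice of the genes fixed at 6 of 6, was found for 3.08% and 0.631% of coding genes. Knockdown 2 had a peak in 6 of 6 windows against 19.9% of coding genes, and at 5 of 6 outside the shared sites. In 5 of the 6 it had a peak at a site that chose the gene. Of all such sites 85.9% had a knockdown 2 peak, so 19.9% is not a like share for the 6 of 6. Knockdown 1 had one in 5 of 6 against 71.3%, knockdown size3 in 3 of 6 against 63.8% and control size3 in 1 of 6 against 13.9%. Windows of long genes hold more sequence: Mdga2, Dock2, Chl1 and Osbpl8 had spans at least as long as those of 99.5%, 99.2%, 96.1% and 92.2% of coding genes, Sfi1 of 84.0% and Emp2 of 67.6%. Per Mb, the windows held 4.20 peaks of knockdown 1 and 5.04 of knockdown size3, against 10.8 and 8.84 over the windows of all coding genes. For knockdown 2 the windows held 11.3 peaks per Mb against 1.77, and without the shared sites and the Sfi1 window 3.62 per Mb.

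Knockdown 1 peaks covered the starts of 3 of the 5 genes that have an entry in the RefSeq promoter table of GRCm38.p6, those of Osbpl8, Mdga2 and Emp2. The peak of Osbpl8 (111164199 to 111165965) held 220 reads, that of Mdga2 (67221359 to 67223042) 120 and that of Emp2 (10313075 to 10314377) 76, with folds of 3.52, 3.52 and 3.68. These folds were under the knockdown 1 list's median of 4.98 and ranked 18413, 18413 and 17607 of 21398. The summits of the peaks lay 179 bp and 117 bp before the start of Osbpl8 and Mdga2 and 131 bp after that of Emp2. Of 21263 promoter windows of protein-coding genes, 16.0% were overlapped by a knockdown 1 peak, so 3 of 5 is a description of few genes. No other library had a peak over any of the 5 starts, and the starts of Chl1 and Dock2 had none in any library. The sequences before the covered starts are shown because knockdown 1 had its peaks with the most reads in these 3 genes there, where control 1, control 2 and knockdown 2 had none. The Dock2 sequence is given for comparison. All run 5′ to 3′ on the strand of the gene, from RefSeq, with CG dinucleotides in capitals.
Osbpl8, chr10:111164552-111164741, plus strand, 190 bases up to the gene span: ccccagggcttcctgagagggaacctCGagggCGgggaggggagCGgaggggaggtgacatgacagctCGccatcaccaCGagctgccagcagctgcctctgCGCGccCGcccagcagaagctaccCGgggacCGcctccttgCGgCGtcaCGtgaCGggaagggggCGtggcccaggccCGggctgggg
Mdga2, chr12:67222550-67222799, minus strand, 250 bases: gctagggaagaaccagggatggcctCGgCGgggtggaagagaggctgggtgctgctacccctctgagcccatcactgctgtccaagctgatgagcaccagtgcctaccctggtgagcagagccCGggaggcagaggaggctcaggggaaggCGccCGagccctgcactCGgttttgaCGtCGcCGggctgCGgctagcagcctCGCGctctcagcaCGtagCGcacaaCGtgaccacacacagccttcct
Emp2, chr16:10313969-10314218, minus strand, 250 bases: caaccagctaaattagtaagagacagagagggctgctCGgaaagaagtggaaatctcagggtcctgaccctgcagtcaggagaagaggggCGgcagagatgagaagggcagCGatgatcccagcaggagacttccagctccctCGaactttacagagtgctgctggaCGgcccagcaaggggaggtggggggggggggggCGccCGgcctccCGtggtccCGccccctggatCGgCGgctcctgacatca
Dock2, chr11:34783906-34784155, minus strand, 250 bases: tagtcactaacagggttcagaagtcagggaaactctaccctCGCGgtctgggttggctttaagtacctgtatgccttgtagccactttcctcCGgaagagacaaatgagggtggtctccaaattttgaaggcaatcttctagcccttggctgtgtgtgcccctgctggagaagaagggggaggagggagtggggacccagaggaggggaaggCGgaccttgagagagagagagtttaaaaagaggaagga

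In the full 250 bases before the start there were 23 CG dinucleotides in Osbpl8, 15 in Mdga2 and 11 in Emp2, against 8 in Chl1 and 4 in Dock2, the genes without a peak there. The median was 10 over all 21263 promoter windows and 18 over the 3403 with a knockdown 1 peak. The GC share was 74.4% in Osbpl8, 65.6% in Mdga2, 62.8% in Emp2, 52.8% in Dock2 and 52.4% in Chl1, with a median of 55.6% over all and 63.2% over those with a peak. The E-box letters CANNTG, which read the same on both strands, occurred 2 times in Osbpl8, 1 time in Dock2 and not in the other windows, and in 62.8% of all promoter windows of this length. The E2F core GCGGGAA, searched on both strands, was in none of the 5 windows and in 4.96% of all.

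Of 36 other genes that overlap the windows, 10 were overlapped by a peak, and 3 of those are protein-coding. Insyn2b, which lies within Dock2, held a knockdown 1 peak with 28 reads. Spdl1, which encodes a spindle protein beside Dock2, was overlapped at its end with the higher coordinate by a knockdown size3 peak with 17 reads. The summit of that peak lay outside Spdl1. Eif4enif1, which encodes a transporter of the translation factor eIF4E beside Sfi1, held a knockdown 2 peak with 9 reads. The others were the RNA genes Gm1600, Gm40760, Gm40761 and Gm33862 and the pseudogenes Pisd-ps1, Gm8873 and Fau-ps2, each with 1 peak of a knockdown library. The wide knockdown 2 peak in Sfi1 was the one over Fau-ps2.

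Of 43 genes related to the 6 by family, complex or known partners, 2 had a control 1 peak in the gene or within 50 kb and 1 had a control 2 peak, beside the 3.08% and 0.631% of all coding genes. Pmp22, the myelin protein gene that gives the Emp2 family its name, had a control 1 peak with 32 reads, and Osbpl6, of the Osbpl8 family, had a control 2 peak with 29 reads. No relative had a peak of both control 1 and control 2. Knockdown 2 had a peak at 9 of the 43 against 19.9% of all coding genes, knockdown 1 and knockdown size3 at 38 each against 71.3% and 63.8%, and control size3 at 10 against 13.9%. Among the 15 Dock, Elmo and Rac genes beside Dock2, none had a control 1 or control 2 peak. Of the 4 centrin genes, partners of Sfi1, none had a control 1 or control 2 peak.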

How the data were processed

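The 6 deposited tables are peak lists of the immunoprecipitates in 12 samples. The submitters' processing notes name cutadapt, Bowtie2 and the build GRCm38. Per the file headers, MACS 1.4.2 made each list from 1 immunoprecipitate and 1 input at a p cutoff of 1.00e-05, keeping 1 read per position. Read counts per peak, as deposited, exclude duplicates. The deposited score is 10 times the negative log10 of a peak's p-value. The deposited fold enrichment is a ratio to the local input background, and the deposited false discovery rate is in percent. These peak values are the authors' and describe peaks within a list.

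Peaks were assigned to genes by RefSeq spans of GRCm38.p6, which give no exons, so exonic or intronic position was not analysed here. Positions count from 1. Sites were merged from control 1 and control 2 peaks overlapping by at least 1 bp, and RPM uses the headers' totals after duplicate removal. Groups were compared by exact permutation with scipy 1.17.1. Overlap and permutation code was tested on simulated data. The 6 genes, the list of relatives and the alternatives were chosen with earlier results of these data known. Named are the 6 genes, genes in their windows that a peak overlaps and relatives with a control 1 or control 2 peak. An item that this rule names is not reported here. The sequence of the shared sites was not analysed here.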

Additional observations from a re-analysis of the deposited data

How the results depend on the processing

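The number of shared sites was 7 or 8 with the gene alone, 5 kb or 100 kb as window and with the stricter overlaps, which were 50% of the shorter or of both peaks and summits within 200 bp, and knockdown 2 had a peak at 5 to 7 of them, in 4 or 5 genes. With a deposited score of at least 100 the sites fell to 2, those with a knockdown 2 peak to 2 and the genes to 2, Chl1 and Emp2. The knockdown minus control difference in other peaks, 12, was 8.67 with the gene alone and 16.0 within 100 kb, 9.33 to 13.8 with 1 library left out, 0.667 with a score of at least 100, 9 without the Sfi1 window, an alternative chosen after seeing the data, and -0.134 percentage points as a share of the list. With a score of at least 100, peaks at the sites lost at that score counted as other peaks. The exact permutation p of the difference ranged from 0.1 to 0.8. With the labels 1, 2 and size3 as a replicate block the difference was 12 (exact sign-flip permutation p = 0.25, the smallest that 3 pairs allow). The labels do not say that a number marks a shared culture or day, and whether equal labels vary together was not tested. Knockdown 2 peaks held at least 8 reads, and what its depth of 5575205 reads left unseen was not tested. The shared sites exist only with both control 1 and control 2, so neither can be left out there.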

Other observations

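A further 5 autosomal coding genes held a site shared by control 1 and control 2 in their span, and they are named after their values were seen. Cdk5rap2, which encodes a centrosome protein, had 89 reads in control 1, 125 in control 2 and 87 in knockdown 2 at chr4:70377654-70378582, with folds of 7.08, 9.65 and 32.67 and a false discovery rate of 2.17% in knockdown 2. In 2210408I21Rik the site on chromosome 13 had 57, 65 and 64 reads in the same libraries, with folds of 8.55, 10.86 and 36.96. Ifit1bl1, of an interferon-induced family, had 51, 38 and 10 reads. Pcsk5, a proprotein convertase gene, had 48 reads in control 1 and 57 in control 2, and Gm9733 had 33 and 42, both with no knockdown 2 peak.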
